A study of Cucumis sativus var. sativus with 11 samples.

Results

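Pollinated cucumber ovaries were compared with ovaries at anthesis, the day the flower opens, to follow the first day of fruit set. The comparison used 6 of the 11 RNA-seq libraries of the series, chosen by their labels alone: 3 pollinated ovaries and 3 anthesis ovaries, each library made from a single ovary. All plants belonged to Elem Female, a gynoecious line, which bears female flowers only, and a non-parthenocarpic one, which does not form fruit without pollination. Pollinated ovaries had received pollen of a pollinator genotype and were taken 1 day later. Anthesis ovaries were ready for pollination and had received no pollen. Plants were 1 month old and grown in a net-house, ovaries were collected in the early morning, and no transgene or mutant was involved. The other 5 libraries were unpollinated ovaries of the same age as the pollinated ones (n = 3) and inhibited ovaries, pollinated while older fruits were on the plant (n = 2).

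In a cucumber flower the ovary lies below the petals and is already a small fruit in form when the flower opens. Without pollen it stops growing and withers. Pollen germinates on the stigma, and pollen tubes grow through the style to the ovules. Auxin and gibberellin signals set off by pollination and fertilization are known to restart cell division and expansion in the ovary wall, the step called fruit set. RNA was taken from ovary tissue as a whole, so pollen tubes, ovules and ovary wall were read together. Fewer cells of a type and less RNA per cell cannot be told apart in such samples.

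Genes are given by the identifiers of the count table. The files do not pair these with names, and 0 of 23248 identifiers matched the 23999 genes of the reference table for the assembly Cucumber_9930_V3. The function of a gene, the markers of the ovary and the lists of hormone, cell cycle and cell wall genes could therefore not be looked up. What follows is described by the size, level and place of the changes, and of the called genes only 2 that rose and 2 that fell are named.

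The pollinated libraries held 19527426, 24208216 and 26456643 reads assigned to genes, and the anthesis libraries 25571303, 25589144 and 25508373. Reads that could not be given to a single gene made up 21.2%, 12.5% and 20.5% of the library in pollinated ovaries, against 11.6%, 10.8% and 13.3% in anthesis ovaries. Pollinated replicates 1 and 3 thus stood apart from replicate 2, which lay within the anthesis range. The means were 18.0 ± 4.84% in pollinated and 11.9 ± 1.27% in anthesis ovaries (SD, n = 3 each; exact two-sided permutation test, p = 0.2). With 3 against 3 that test cannot go below 0.1, so it could not show a difference. All 6 libraries carried the same second index sequence. Anthesis replicate 3 was read on lane 2 and the others on lane 3. Correlations of log2 levels were 0.985 to 0.987 among pollinated and 0.986 to 0.990 among anthesis libraries, above the 0.957 to 0.973 between the groups. Unpollinated replicate 3 is in neither group compared, and enters only through the filter, the scaling and the estimate of the spread. It lay near the pollinated libraries on the genes that fell.

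Over the first day after pollination 1381 genes rose and 1681 fell, 7.39% and 9% of the 18679 genes tested and 16.4% together. The test was the quasi-likelihood test of edgeR, with a call at a Benjamini-Hochberg adjusted p under 0.05. Most changes were small, with a median size of 0.52 on the log2 scale among called genes. Among the called genes that changed less than 1.5-fold, 971 rose and 747 fell. At every size cut-off from 1.5-fold up, falls outnumbered rises. At 1.5-fold or more, 410 genes (2.19%) were higher and 934 (5%) lower. At 2-fold or more there were 168 (0.899%) higher and 590 (3.16%) lower genes. The numbers were 64 (0.343%) and 267 (1.43%) at 4-fold or more, and 37 (0.198%) and 151 (0.808%) at 8-fold or more. In 3039 of the 3062 called genes the pollinated and anthesis ovaries did not overlap in CPM, which held for 38.1% of all genes tested (18.7% higher and 19.5% lower). A stricter test, of a change larger than 2-fold rather than of any change, left 21 genes higher and 105 lower (edgeR glmTreat, 0.112% and 0.562% of the genes tested, 0.675% together). Their number, 126, was between 32 and 50 when 1 of the 6 libraries was left out, except for anthesis replicate 1, without which it was 108. It was 246 in a fit of the 6 libraries alone. Over all genes the median log2 fold change was 0.002.

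**Figure D1:**
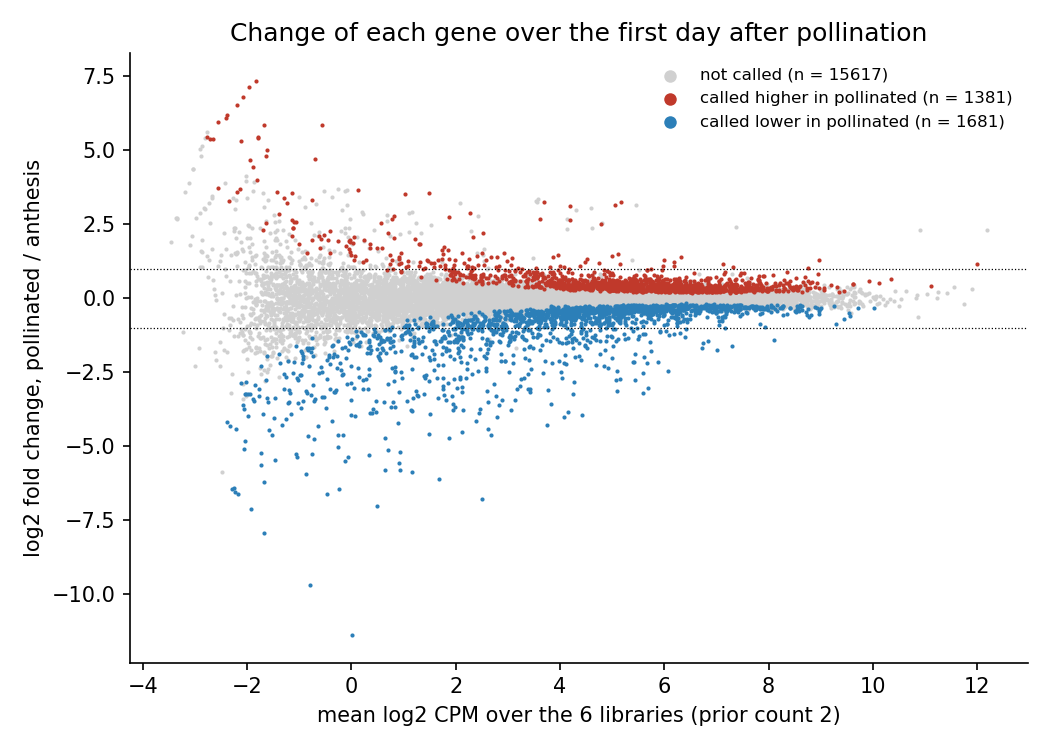
Each point is 1 of the 18679 genes tested; the x axis is its mean log2 CPM over the 6 libraries and the y axis its log2 fold change of pollinated over anthesis ovaries. Genes called higher (1381) and lower (1681) are coloured, dotted lines mark 2-fold, and the points that fell reach further from 0 at middle levels than the points that rose.

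The number of calls was lower whichever of the 6 libraries was left out, and lower with the unassigned share in the fit. Fewer libraries also give the test less power. In pollinated replicates 1 and 3 the share was above that of every anthesis library, so share and pollination cannot be fully told apart. With that share as a term in the fit, 433 genes were higher and 613 lower, 1046 in all, and 32 passed the test against 2-fold. The number of calls was 1509 without anthesis replicate 3, which is also the comparison within lane 3, and between 1775 and 2162 without any other 1 of the 6 libraries. The 168 rises of 2-fold or more were 87 without anthesis replicate 3 and 110 without pollinated replicate 1. In each of the 6 fits that left out 1 of these libraries, 443 of the genes that rose and 693 of the genes that fell were called in the same direction, 32.1% and 41.2% of the calls. Of the genes changed 2-fold or more, 77 of the 168 that rose and 390 of the 590 that fell were called in every one of the 6 fits. With pollinated replicate 2 as the only pollinated library, after removal of every library with an unassigned share over 15%, 65 genes were higher and 370 lower at 2-fold or more. Of these, 52 and 334 were among the 168 and 590.

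The direction of the calls changed with the level of the gene. Genes were put in 5 equal bins by level. In the bin of lowest CPM 124 rose and 345 fell, and in the bin of highest CPM 467 rose and 269 fell. The share called was 12.6% in the lowest and 19.7% in the highest bin. Changes of 2-fold or more were mostly found at low levels: 315 of the 590 falls and 110 of the 168 rises lay in the lowest bin, and 11 and 8 in the highest. CPM is not divided by gene length, so a gene's place in this order also depends on its length.

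**Figure D2:**
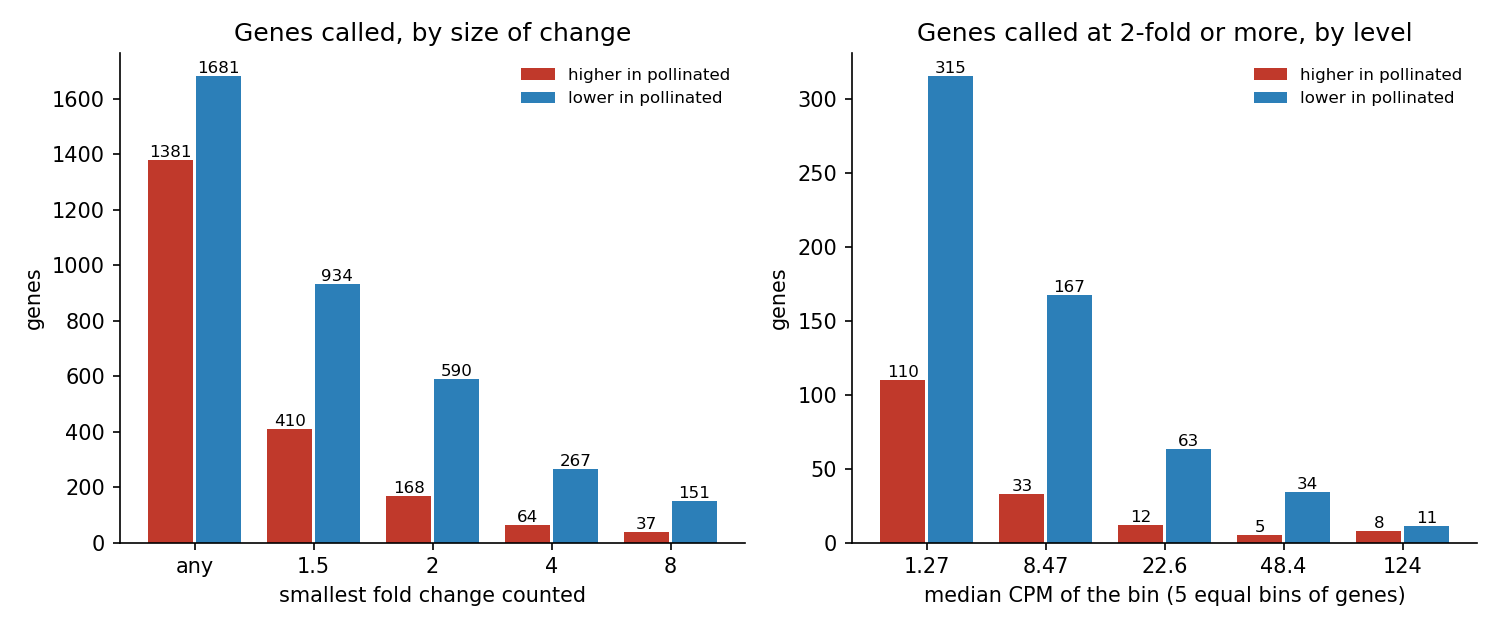
The left panel counts the genes called in pollinated against anthesis ovaries at any size and at 1.5-, 2-, 4- and 8-fold or more. The right panel counts those at 2-fold or more in 5 equal bins of genes ordered by mean log2 CPM, named by the bin's median CPM; falls outnumber rises in every pair of bars.

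Rises were the larger part by reads even so. The 1381 genes that rose held 13.7%, 12.6% and 13.1% of the gene reads in pollinated ovaries (summed CPM on TMM-adjusted library sizes), against 9.84%, 9.66% and 9.20% in anthesis ovaries. The 1681 genes that fell held 6.31%, 6.51% and 6.40% in pollinated ovaries, against 8.91%, 9.38% and 9.52% in anthesis ovaries. These genes were chosen as high or low in the same libraries, so the gaps between the groups describe the size of the response and test nothing. At 2-fold or more the shares were small. The 590 genes held 0.344%, 0.342% and 0.334% of gene reads in pollinated ovaries, against 1.00%, 1.40% and 1.07% in anthesis ovaries. The 168 genes held 1.14%, 0.847% and 1.01% in pollinated ovaries, against 0.449%, 0.407% and 0.411% in anthesis ovaries. Much of that came from a single gene: without Csa4G167980 the shares were 0.450%, 0.312% and 0.405% in pollinated and 0.150%, 0.146% and 0.155% in anthesis ovaries.

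Csa4G167980 showed the greatest rise in CPM of the 66 genes open to naming. It stood at 6934, 5356 and 6097 CPM in pollinated ovaries, against 2986, 2612 and 2564 CPM in anthesis ovaries. All pollinated ovaries lay above all anthesis ovaries, as the rule for naming genes required. The means were 6129 ± 789 and 2721 ± 230 CPM (SD, n = 3 each), a log2 fold change of 1.17 with an SE of 0.15 (edgeR adjusted p = 0.000606), and only 1 gene had a higher mean CPM over the 6 libraries. The estimate was 0.97 without the libraries of raised unassigned share, a fit with only 1 pollinated library. Unpollinated ovaries had 4455, 4778 and 5104 CPM and inhibited ovaries 3619 and 4839 CPM, between the pollinated and anthesis values. The change with pollination was not shown to differ from that without (log2 difference 0.36 ± 0.14 SE, edgeR adjusted p = 0.0784) or from that in inhibited ovaries (0.54 ± 0.16 SE, edgeR adjusted p = 0.0534).

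Csa3G630260 had the largest fold rise under the naming rule. Its level was 6.28, 8.48 and 13.6 CPM in pollinated ovaries, against 0.698, 1.04 and 0.672 CPM in anthesis ovaries. The highest of the pollinated values was 13.6 CPM and no anthesis ovary passed 1.04 CPM. On the log2 scale the gene rose by 3.55 with an SE of 0.51 (edgeR adjusted p = 0.00142), with 117, 205 and 352 reads in pollinated ovaries behind it and 18, 27 and 17 in anthesis ovaries. Unpollinated ovaries had 1.51, 1.46 and 4.79 CPM and inhibited ovaries 4.41 and 1.69 CPM. The gene stood higher in pollinated than in unpollinated ovaries (log2 difference 1.87 ± 0.46 SE, edgeR adjusted p = 0.00892), while the difference from inhibited ovaries was not called (1.61 ± 0.52 SE, edgeR adjusted p = 0.0661).

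Csa7G072780 fell furthest of the 347 genes open to naming in that direction. It had 0 reads in each of the 3 pollinated libraries, against 127, 619 and 353 reads in the anthesis libraries, which is 4.92, 23.7 and 14.0 CPM. The level in pollinated ovaries was at least 326-fold lower than the anthesis mean, with 3 reads over the pollinated libraries as the floor (edgeR adjusted p = 0.00287). Without pollination it was also low, at 3.07, 0.976 and 0.0435 CPM in the unpollinated ovaries. Inhibited ovaries had 1.21 and 0.226 CPM. The difference between pollinated and unpollinated ovaries was called (edgeR adjusted p = 0.0281); that between pollinated and inhibited ovaries was not (edgeR adjusted p = 0.137).

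Csa3G145780 lost the most CPM among those 347 genes. It stood at 176, 162 and 171 CPM in pollinated ovaries, against 478, 416 and 457 CPM in anthesis ovaries. The pollinated ovaries lay close together and below every other ovary of the series. The means were 169 ± 7.01 and 451 ± 31.6 CPM (SD, n = 3 each; log2 fold change -1.41 ± 0.16 SE, edgeR adjusted p = 0.000338). Unpollinated ovaries had 578, 405 and 322 CPM and inhibited ovaries 474 and 460 CPM. Pollinated ovaries were lower than unpollinated (log2 difference -1.36 ± 0.16 SE, edgeR adjusted p = 0.000124) and lower than inhibited ovaries (-1.46 ± 0.17 SE, edgeR adjusted p = 0.000357). Neither unpollinated nor inhibited ovaries were called different from anthesis for this gene, with log2 fold changes of -0.05 ± 0.16 SE and 0.05 ± 0.17 SE (edgeR adjusted p = 0.824 and 0.879).

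**Figure D3:**
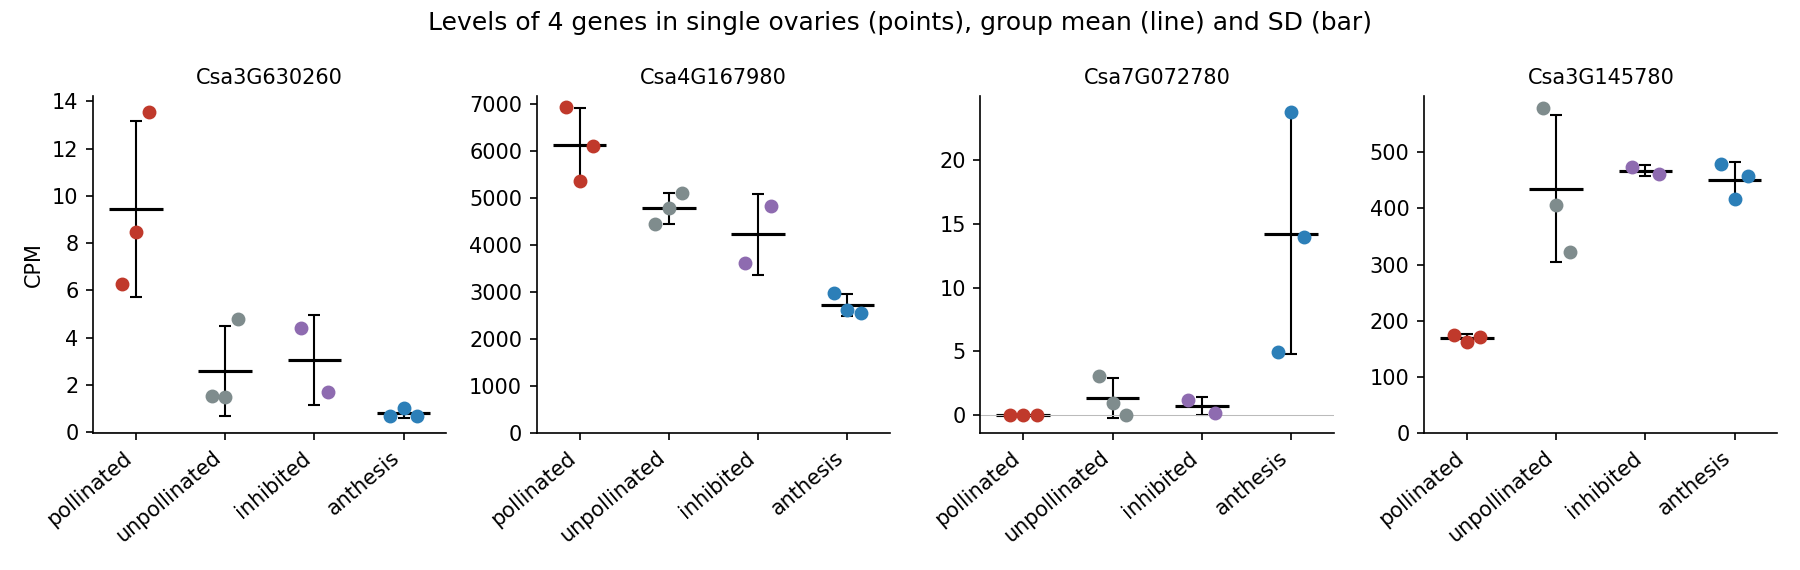
CPM of the 4 named genes in each of the 11 ovaries (points), with the group mean (line) and SD (bar), n = 3 for pollinated, unpollinated and anthesis and n = 2 for inhibited ovaries. Pollinated and anthesis ovaries do not overlap in any panel, as the rule for naming genes required. Only for Csa3G145780 do the unpollinated and inhibited ovaries lie around the anthesis level.

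Genes that fell 2-fold or more were often reduced to a trace. Of the 590 genes that fell 2-fold or more, 238 had a mean under 1 CPM in pollinated ovaries and 54 did at anthesis. The median of their mean levels was 1.5 CPM in pollinated and 6.81 CPM in anthesis ovaries. Over all 1681 genes called lower it was 14.2 CPM in pollinated and 24.6 CPM in anthesis ovaries. Of the 9283 tested genes with a lower estimate, called or not, 1064 were under 1 CPM in pollinated and 693 in anthesis ovaries. Among the 151 that fell 8-fold or more, the median level was 0.161, 0.165 and 0.308 CPM in the pollinated libraries, against 3.26, 6.40 and 3.76 CPM in the anthesis libraries. Anthesis replicate 2 was the highest of its group, and without it 103 genes fell 8-fold or more. Reads were 0 in all 3 pollinated libraries for 8 of the 151 genes. Their median log2 fold change was -3.75, and -3.70 with those 8 genes at their bound.

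Genes that rose by much started from almost nothing. Of the 37 genes that rose 8-fold or more, 33 had a mean under 1 CPM at anthesis, and 10 had 0 reads in all anthesis libraries. The median level was 0.805, 0.786 and 0.655 CPM in pollinated ovaries, against 0.0388, 0.0383 and 0 CPM in anthesis ovaries. Their median log2 fold change was 4.66, and 3.60 with those 10 genes at their bound, which shows how far such folds depend on reads near 0. The number of such genes was 60 with no filter on low counts, 18 with at least 1 CPM required in 3 libraries, and 19 without anthesis replicate 3. Over the whole table, 7 genes had at least 10 reads in every library of one group and 0 in every library of the other. With up to 3 reads allowed over the low group, 11 genes lost their reads and 7 gained reads with pollination.

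Whether a change with pollination differed from the change of an ovary that stayed without pollen was tested by comparing pollinated with unpollinated ovaries directly, since the anthesis level drops out of that difference. Of the 3062 genes changed since anthesis, 1151 (37.6%) were also called against unpollinated ovaries in the direction of their change. Another 192 were called in the opposite direction and 1719 passed in neither. The background was 15% of the tested genes higher and 15.3% lower in pollinated than in unpollinated ovaries, 30.3% together. The members were chosen on the same pollinated libraries, which raises their share. The share was larger for larger changes. It was 30.4% of the genes that rose by less than 1.5-fold and 64.9% of those that rose 8-fold or more, and 27.3% and 60.9% among the falls. Without unpollinated replicate 3, the count of 1151 of 3062 was 1310 of the 3028 genes then called. Without pollinated replicate 2 or 3 it was 652 of 1965 or 595 of 1775. A covariate for unassigned reads brought it to 466 of 1046, so the calls against anthesis themselves also became fewer.

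Inhibited ovaries had received pollen too, and were compared in the same way. Of the 3062 genes, 957 (31.3%) differed between pollinated and inhibited ovaries in the direction of their change since anthesis and 32 in the opposite one. The background was 4.81% of all genes higher and 6.54% lower in pollinated than in inhibited ovaries, 11.3% together. Between 595 and 728 genes did so when 1 of the 6 libraries was left out, in fits that called between 1509 and 2162 genes. A term for the second index brought the count to 472 of the 3131 genes then called. All pollinated libraries carried one form of that index and both inhibited libraries the other. Only the unpollinated libraries held both forms, so the term rested on their replicate 1 against replicates 2 and 3. Replicate 3 is the one that lay near the pollinated libraries, so this count cannot separate index from group. The covariate for unassigned reads brought the count to 483 of the 1046 genes then called.

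Some of the strongest rises were higher still in inhibited ovaries. Of the 37 genes that rose 8-fold or more, 24 were higher in pollinated than in unpollinated ovaries by the edgeR test, against 15% of all genes. Between pollinated and inhibited ovaries, 4 of the 37 were higher in pollinated ovaries and 12 were higher in inhibited ones. Of all genes, 4.81% and 6.54% were. No count for this list was taken with the terms for the second index or the unassigned share. The median level of the 37 genes was 2.30 and 1.52 CPM in the inhibited libraries, above every pollinated library. It was 0.0459, 0.0407 and 0.0871 CPM in the unpollinated libraries, near the anthesis level. By these medians, the genes were read in both groups that had received pollen and were at or close to 0 in both groups that had not. The choice of the genes fixed this for pollinated and anthesis ovaries. The unpollinated and inhibited values were not used in that choice, but they were not fully free. The filter on low counts took all 11 libraries, so a gene scarce in pollinated ovaries could pass it through high inhibited values. How far this raised the inhibited medians and the 12 genes higher in inhibited ovaries was not tested. Single genes reached 37.8, 63 and 91.5 CPM in the unpollinated libraries, and 13 of the 37 were not called against unpollinated ovaries.

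Of the 590 genes that fell 2-fold or more, 219 (37.1%) were lower in pollinated ovaries than in both unpollinated and inhibited ovaries, each by its own test, against 3.90% of all genes. Another 214 (36.3%) were called lower in pollinated ovaries in neither test. Inhibited ovaries lay between pollinated and anthesis ovaries in the median. The genes were chosen as low in pollinated and high in anthesis ovaries, which favours such a place for any other group. For the 151 strongest falls, the median log2 level relative to the anthesis mean was -3.38, -3.53 and -3.10 in pollinated ovaries. It was -0.70, -1.29 and -3.02 in unpollinated ovaries, -1.24 and -1.61 in inhibited ovaries, and -0.38, 0.48 and -0.15 in the anthesis ovaries themselves. Unpollinated replicate 3 lay beside the pollinated ovaries and the other unpollinated ovaries did not. All of these comparisons share the pollinated or the anthesis libraries.

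**Figure D4:**
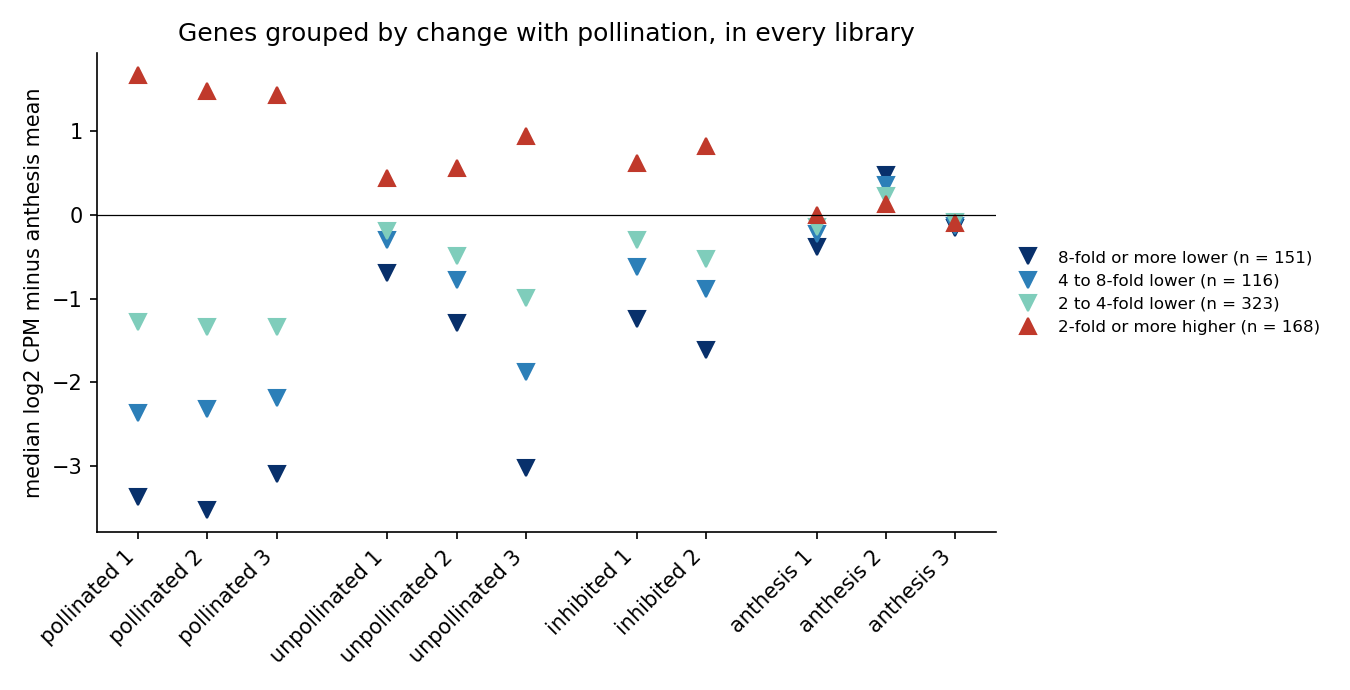
Median log2 CPM minus the anthesis mean in each of the 11 libraries, for genes that fell 2- to 4-fold (n = 323), 4- to 8-fold (n = 116) and 8-fold or more (n = 151) with pollination and for genes that rose 2-fold or more (n = 168). The pollinated and anthesis libraries chose the genes, which favours a place between them for any other group. Unpollinated replicate 3 lies near the pollinated libraries on all 3 sets of falling genes, and the inhibited libraries lie between.

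Genes that fell and genes that rose both had neighbours changed the same way more often than all genes tested. In this identifier scheme the digit after Csa names the chromosome and the numbers ascend along it. For 84 of the 590 genes that fell 2-fold or more (14.2%), the next tested identifier also fell 2-fold or more, where 3.16% of all tested genes did. For the 168 genes that rose, the share was 13 genes (7.74%) against 0.899%. Over the alternatives it ran from 4.55% without pollinated replicate 1 to 15.5% in a fit of the 6 libraries alone, and was 5.06% without anthesis replicate 2 and 12.8% without unpollinated replicate 3. For the falls it ran from 10.5% with the covariate for unassigned reads to 15.3% without unpollinated replicate 3. No test was made of these shares. Neighbours may be copies of one another, and reads of near-identical copies are hard to assign. The falls held 15 runs of 3 or more neighbouring identifiers with 55 genes in all, the longest of 7 genes, and the rises held 6 genes in runs of 3.

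The longest of these runs, under the prefix of chromosome 4, summed to 27.5, 19.4 and 22.1 CPM in pollinated ovaries. It summed to 103, 82.4 and 77.6 CPM in unpollinated, 85.0 and 75.3 CPM in inhibited, and 74.0, 120 and 84.2 CPM in anthesis ovaries. Only the pollinated ovaries were low. In a run of 5 under the prefix of chromosome 6 the pollinated ovaries were again the lowest, at 56.1, 61.0 and 42.7 CPM. It had 255, 180 and 200 CPM in unpollinated, 136 and 132 CPM in inhibited, and 138, 136 and 148 CPM in anthesis ovaries. In all 15 runs every pollinated library lay below every inhibited library and below unpollinated replicates 1 and 2. In 11 of them unpollinated replicate 3 reached down to the pollinated range. A run of 4 under the prefix of chromosome 6 is an example, with 3.60, 1.99 and 6.70 CPM in pollinated ovaries, 74.6, 41.6 and 6.62 CPM in unpollinated, 57.9 and 51.2 CPM in inhibited, and 45.3, 51.6 and 39.9 CPM in anthesis ovaries. Calls were otherwise spread over the chromosomes, with 15.5 to 17.1% of the tested genes of each of the 7 chromosome prefixes called.

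**Figure D5:**
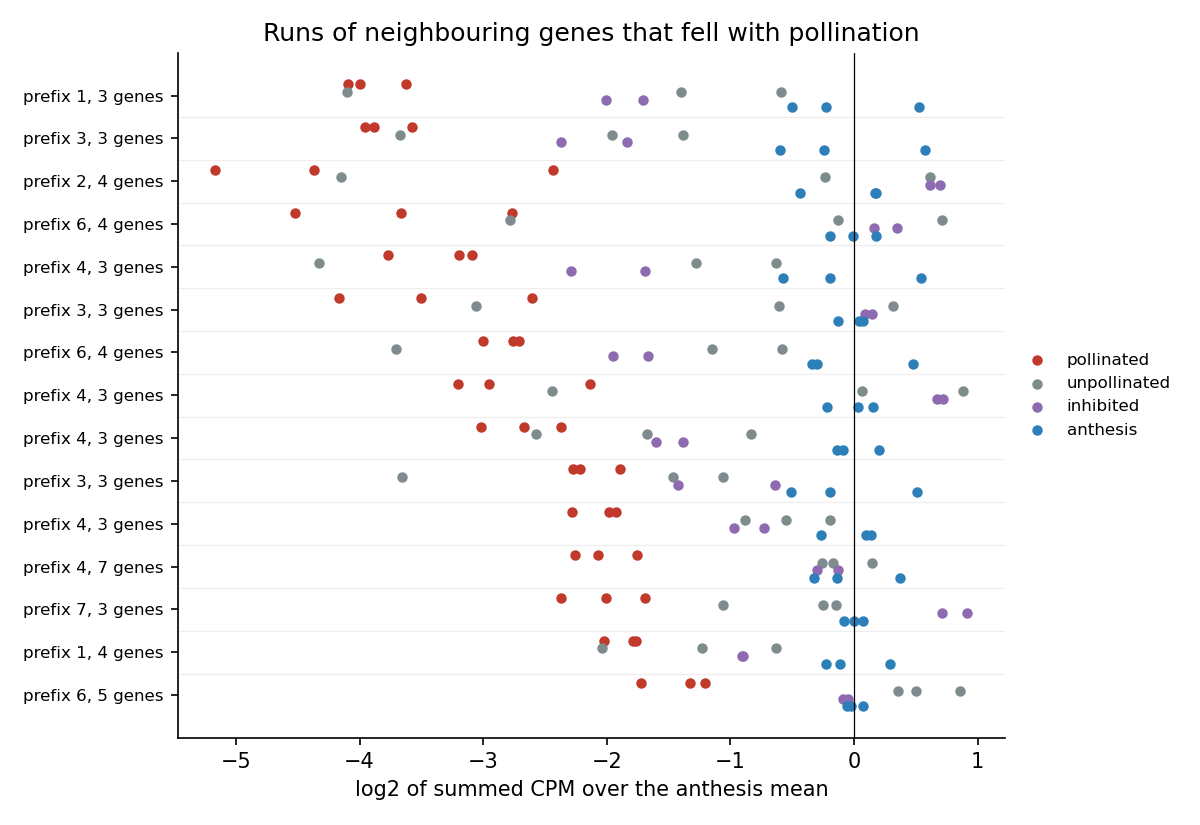
Each row is 1 of the 15 runs of 3 or more neighbouring identifiers that fell 2-fold or more with pollination, labelled by chromosome prefix and number of genes; points are single ovaries, as log2 of the run's summed CPM over its anthesis mean. Pollinated ovaries lie left of the anthesis ovaries in every row, as the choice of the runs required, and 1 unpollinated ovary (replicate 3) lies among or left of the pollinated ones in most rows.

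Some rises moved with the unassigned share. A run of 3 neighbouring genes under the prefix of chromosome 5 rose by log2 fold changes of 3.13 to 3.26 (edgeR adjusted p = 0.0365 to 0.0497). It summed to 301, 69.4 and 385 CPM in pollinated ovaries, against 38.1, 8.51 and 34.3 CPM in anthesis ovaries, and made up 64.6%, 39.1% and 69.8% of the CPM of the 37 strongest rises in pollinated ovaries. Its sum was 107 CPM in unpollinated replicate 3, against 11.8 and 7.98 CPM in replicates 1 and 2, and 244 CPM in inhibited replicate 2, against 30.5 CPM in replicate 1. Those are the other libraries with a raised unassigned share, 16.8% and 24.8%. Without every library of raised share, pollinated replicates 1 and 3 among them, the log2 fold changes of the 3 genes were 1.26 to 1.40. That fit kept pollinated replicate 2 as the only pollinated library. None of the 3 genes was called once the share entered as a covariate (edgeR adjusted p = 0.186 to 0.294).

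In the bin of highest level, 3 genes had 2-fold or larger rises that were not called, and they are named here after their values were seen. Csa4G243390, the gene with the most reads, had 19170, 3678 and 14880 CPM in pollinated ovaries, against 2231, 972.8 and 4377 CPM in anthesis ovaries. Pollinated replicate 2 lay inside the anthesis range. Csa6G239680 had 7721, 1494 and 6561 CPM in pollinated ovaries, against 891.8, 373 and 1929 CPM in anthesis ovaries. CsaUNG030420 had 701, 137 and 518 CPM in pollinated ovaries, against 87.8, 37.8 and 128 CPM in anthesis ovaries. Their log2 fold changes were 2.30 to 2.42 (edgeR adjusted p = 0.0962 to 0.123). For all 3 genes the 4 libraries with a raised unassigned share stood above the other 7. The part of the unassigned reads in these levels was not tested.

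Pollinated libraries read slightly fewer genes. At 1 CPM or more there were 16909, 16921 and 16971 genes in pollinated ovaries, against 17148, 17193 and 17073 in anthesis ovaries, with no overlap (exact two-sided permutation test, p = 0.1, the smallest 3 against 3 can give). The 100 most abundant genes took 13.9%, 11.4% and 12.9% of gene reads in pollinated ovaries, against 10.9%, 10.3% and 11.7% in anthesis ovaries. These groups overlapped (exact two-sided permutation test, p = 0.2). The number of genes that held 50% of the reads was 1617, 1743 and 1686 in pollinated and 1784, 1854 and 1701 in anthesis ovaries, which also overlapped (exact two-sided permutation test, p = 0.2). Adjusted over the 4 library measures tested, including the unassigned share, no p can pass 0.05.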

How the data were processed

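Raw counts, whole numbers of reads per gene, were deposited by the authors for all libraries. The submitters' processing notes list HTSeq 0.6.1p1, STAR 2.5.0a and DESeq2, with no role for any; the build, annotation and strand setting are not given in the sources used, so overlapping genes and close copies may share reads. The 5 lines that name no gene were left out. Another deposited table, a normalized signal, equals the counts divided by 1 factor per library; it was only checked. Groups come from the labels. Replicate numbers only name libraries. The labels do not say whether the ovaries grew on separate plants, and p-values reflect only how much single ovaries vary.

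In edgeR 4.0.16 (R 4.3.3), genes passed filterByExpr, were scaled by TMM and fitted in 1 quasi-likelihood model of all 11 libraries; CPM uses TMM-adjusted library sizes, log2 CPM a prior count of 2. SEs were taken as the absolute log2 fold change over the root of the F statistic. Named genes: per direction, the largest log2 fold change and the largest CPM difference among genes called at 2-fold or more, with at least 5 CPM in the higher group and no overlap. Alternatives used DESeq2 1.42.0, limma 3.58.1, other filters and factors, covariates and fewer libraries. No 2 libraries of a group were duplicates (chi-square per gene at least 10.05). The members and lists were chosen with earlier results of these data known. The test script was tested on simulated data.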

Additional observations from a re-analysis of the deposited data

Results flagged for a closer look

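For 3 of the named genes the change since anthesis differed between pollinated ovaries and another group, by the test of the difference itself. Csa3G630260 was higher in pollinated than in unpollinated ovaries by 1.87 on the log2 scale, at 9.44 ± 3.74 against 2.59 ± 1.90 CPM (SD, n = 3 each, higher in 3 of 3 pollinated ovaries than in any unpollinated ovary; edgeR adjusted p = 0.00892). Csa7G072780 had a fitted log2 difference of -7.99 between pollinated and unpollinated ovaries (edgeR adjusted p = 0.0281). That value depends on the prior count inside the edgeR fit, not the 2 used for log2 CPM. The pollinated libraries had 0 reads against 67, 24 and 1 in the unpollinated ones. Csa3G145780 was lower in pollinated than in unpollinated ovaries by a log2 difference of -1.36 (edgeR adjusted p = 0.000124) and than in inhibited ovaries by -1.46 (edgeR adjusted p = 0.000357). It was lower in each of the 3 pollinated ovaries than in any of the other 8. Groups of 3 were not searched for outlying samples.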

How the results depend on the processing

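No paired analysis was possible because the labels give the groups no shared replicate numbers. No gene called in the main fit was called in the opposite direction under any alternative, and the 4 named genes stayed called under every one. RLE factors, DESeq2, limma voom and the other filters kept the counts within 1.5 times, except the rises of 8-fold or more: 60 with no filter and 18 with 1 CPM in 3 libraries. The test against 2-fold gave 126 genes, 246 with only the 6 libraries, 192 with a term for the second index and 32 with the unassigned share as a covariate. With that covariate 1046 genes were called, 433 higher and 613 lower, of which 94 and 296 changed 2-fold or more and 77 fell 8-fold or more. It left 466 genes called against unpollinated and 483 against inhibited ovaries in the direction of change. Without the libraries of raised share, which leaves pollinated replicate 2 assumed to vary like the other groups, 790 were called, 238 higher and 552 lower. At 2-fold or more these were 65 and 370, with 21 rises of 8-fold or more, 531 against unpollinated and 332 against inhibited ovaries. The index term, which rested on the unpollinated libraries alone, gave 472 against inhibited ovaries. The cause was not tested.

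When 1 of the 6 libraries was left out, calls ran from 1509 to 2162, higher from 566 to 983, lower from 943 to 1179. At 2-fold or more, rises ran from 87 to 158 and falls from 449 to 532; at 8-fold or more from 19 to 35 and from 103 to 149. The test against 2-fold ran from 32 to 108, and was lowest without pollinated replicate 2. Calls against unpollinated ovaries ran from 595 to 994 and against inhibited ovaries from 595 to 728. Without unpollinated replicate 3, an alternative added after the data were seen, the numbers in the same order were 3028, 1332, 1696, 196, 603, 54, 155, 250, 1310 and 1028. The library measures kept their direction at the other thresholds tried. Genes under about 1 CPM rest on few reads, which limits folds there.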
